A study of Drosophila melanogaster with 4 samples.

Results

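The homeotic (Hox) genes of Drosophila melanogaster lie in a pair of clusters on chromosome arm 3R, the Antennapedia complex and the bithorax complex, and the H3K4me3 regions called inside these clusters are described here. H3K4me3, trimethylation of histone H3 at lysine 4, was mapped by chromatin immunoprecipitation and sequencing (ChIP-seq) in whole Oregon-R embryos (wild type) of 14 to 16 h, fixed with formaldehyde, in 2 H3K4me3 ChIP samples made with lot 2 of 1 antibody. The 2 Input samples, chromatin of the same strain, genotype and stage that was not immunoprecipitated, served as background of the authors' calls and have no list of their own. Each ChIP replicate has a list of enriched regions with a position and 1 score each, and a further list covers the replicate set (the combined list). Members were all enriched regions that overlapped 3R from 2480000 to 2830000 (Antennapedia complex) or from 12480000 to 12810000 (bithorax complex) on FlyBase release 5. They number 57 of the 19758 regions of the 3 lists: 13 of 5539 in the combined list, 35 of 9260 in replicate 1 and 9 of 4959 in replicate 2. No region typed as depleted lay in either complex. Separate embryo collections for the replicates are not recorded, and their spread may then be technical only. All cell types of the embryo were pooled, so a mark on few cells and a weak mark on many cannot be told apart.

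Hox genes encode homeodomain transcription factors that give body segments their identity along the head-to-tail axis. In the Antennapedia complex, lab acts in the head, pb in the mouthparts, Dfd in the maxillary and mandibular segments, Scr in the labial segment and the prothorax, and Antp in the thorax. In the bithorax complex, Ubx acts in the posterior thorax and anterior abdomen, abd-A in the middle abdomen and Abd-B in the posterior abdomen. Each gene is on in its own stretch of segments and held silent elsewhere by Polycomb group proteins, which place trimethylation on lysine 27 of histone H3, while trithorax group proteins, among them methyltransferases of lysine 4, keep active copies on. H3K4me3 is known from active promoters.

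Along 3R the members lie in the order lab, pb, Dfd, Scr and Antp, and then Ubx, abd-A and Abd-B. The RefSeq gene table of release 6, used only for names and neighbours, places 43 genes from lab to Antp by start position. Of these 19 encode proteins, and 14 of them are not among the 8 homeotic genes. They include bcd, whose maternal product patterns the head, zen, which acts in dorsal tissue, the pair-rule gene ftz, and 7 cuticle protein genes of the Ccp84A group. From Ubx to Abd-B the table places 16 genes, of which 6 encode proteins, 7 are long non-coding RNAs and 2 are the microRNAs mir-iab-4 and mir-iab-8. The regions carry no gene names and no annotation of release 5 was used, so no region is assigned to a gene or called exonic, intronic or intergenic, and the clusters are identified by the windows alone. For the same reason the stage could not be checked against marker genes.

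The bithorax complex was poor in H3K4me3 regions in every list, and the Antennapedia complex in the combined list and replicate 2. The Antennapedia complex held 9 combined regions, 30 regions of replicate 1 and 5 of replicate 2. The bithorax complex held 4 combined regions, 5 of replicate 1 and 4 of replicate 2. Windows laid end to end over 3R, without those that touched the complex, had medians of 15, 29 and 13 regions at the size of the Antennapedia complex and of 14, 27 and 12 regions at that of the bithorax complex, for the lists in the same order. The mean over the replicates was 17.5 ± 17.7 regions in the Antennapedia complex and 4.5 ± 0.707 in the bithorax complex (SD, n = 2 each). The SD of the Antennapedia complex exceeds its mean, whereas the replicates differed by 1 region in the bithorax complex. Replicate 1 had 25 more regions than replicate 2 in the Antennapedia complex, and 6 of the 77 other windows had a greater difference.

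**Figure D1:**
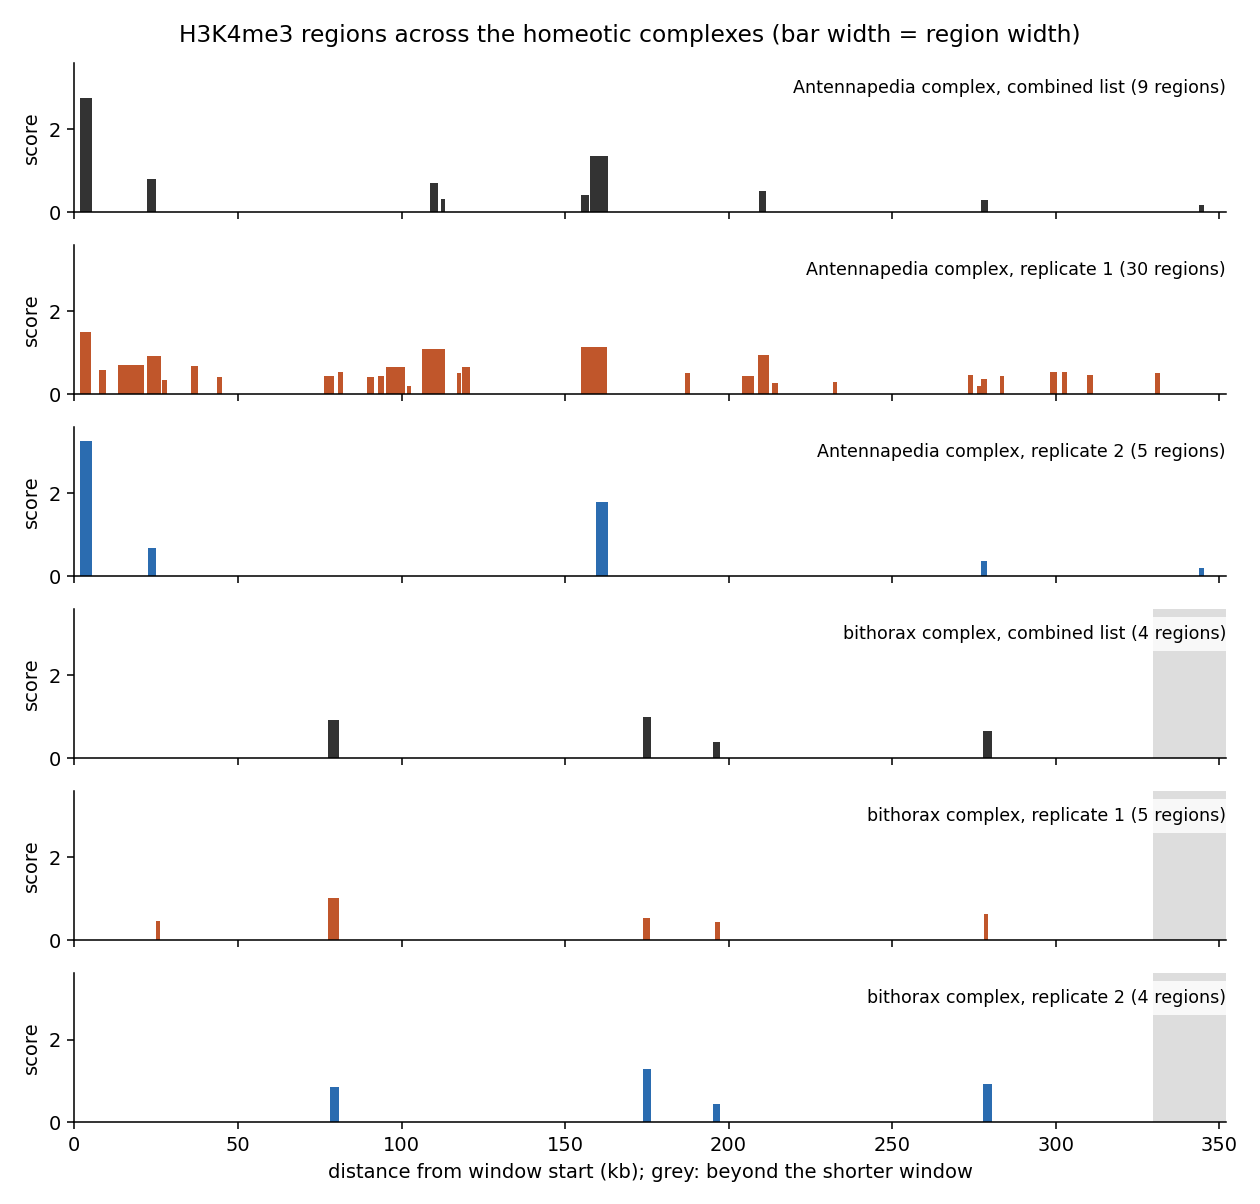
Each bar is 1 H3K4me3 region, drawn at its distance from the window start in kb (x axis) with its own width and with the authors' score as height (y axis, scale not given), for the combined list and both replicates in each complex. The bithorax complex shows the same 4 positions in all 3 lists, with 1 further region in replicate 1, whereas in the Antennapedia complex replicate 1 has 30 regions and replicate 2 has 5.

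The covered share, the percentage of a window's bases that lie in regions, was compared with the same windows. Of the windows set against each complex, 2 touch the other complex. The windows share the same libraries and are not independent, so their ranks are a description. Combined regions covered 3.24% of the bithorax complex, against a median of 13.5% and a range of 3.64% to 36.0% in the other 82 windows. None of the 82 windows was covered less. Replicate 1 covered 2.93% of the bithorax complex, again below all 82 windows (median 22.7%), and replicate 2 covered 3.10%, where 1 of the 82 windows was lower (median 12.1%). That window reaches into the Antennapedia complex, and none of the 80 windows clear of both complexes was lower. The mean over the replicates was 3.01% ± 0.116 (SD, n = 2).

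Combined regions covered 6.72% of the Antennapedia complex, against a median of 13.0% in the other 77 windows, of which 4 were covered less. Replicate 1 covered 19.7 percentage points more than replicate 2 here, and 15 of the 77 other windows had a greater difference. Replicate 2 covered 3.72%, with 1 of 77 windows lower and a median of 11.7%, while replicate 1 covered 23.4%, close to its median of 22.7%, with 39 of 77 windows lower. The mean over the replicates was 13.6% ± 14.0 (SD, n = 2), so the low covered share of the Antennapedia complex was present in replicate 2 and the combined list but not in replicate 1.

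**Figure D2:**
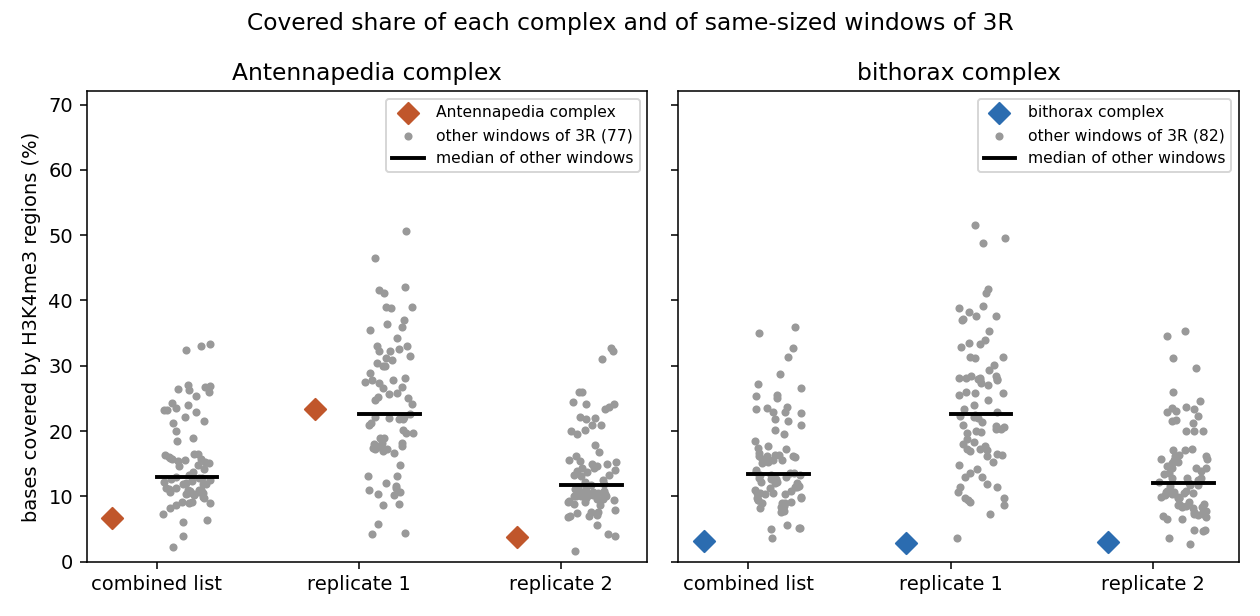
Percentage of bases covered by H3K4me3 regions (y axis) in each complex (diamonds) and in the same-sized windows of 3R (grey points, black line at their median), for each list. The bithorax complex lies at 2.93% to 3.24% in all 3 lists, at or near the bottom of the windows, whereas the Antennapedia complex lies at 23.4% in replicate 1 and at 3.72% in replicate 2.

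The low coverage of the bithorax complex ended at its borders. In the 100 kb before the window, 7 combined regions covered 21.8% of the bases, and in the 100 kb after it 10 regions covered 30.4%. In the 3 equal parts of the bithorax window itself, combined regions covered 3.05%, 4.07% and 2.60%. Replicate 1 gave 4.34%, 3.21% and 1.24% there, with 26.5% before and 22.0% after the window. Replicate 2 gave 2.62%, 4.04% and 2.63%, with 20.4% and 28.7% on the same sides. All 6 values of the replicates within the complex were below all 4 in its flanks.

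The Antennapedia complex had no such pair of borders. Combined regions covered 8.38%, 8.68% and 3.11% of its 3 equal parts, 2.52% of the 100 kb before it and 23.2% of the 100 kb after it. In replicate 1 the covered share was 39.2% in the part at the lab end, 20.2% in the middle and 10.9% in the part at the Antp end. In replicate 2 it was 5.03%, 3.08% and 3.04% in the same order. The gap between the replicates was thus widest at the lab end.

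**Figure D3:**
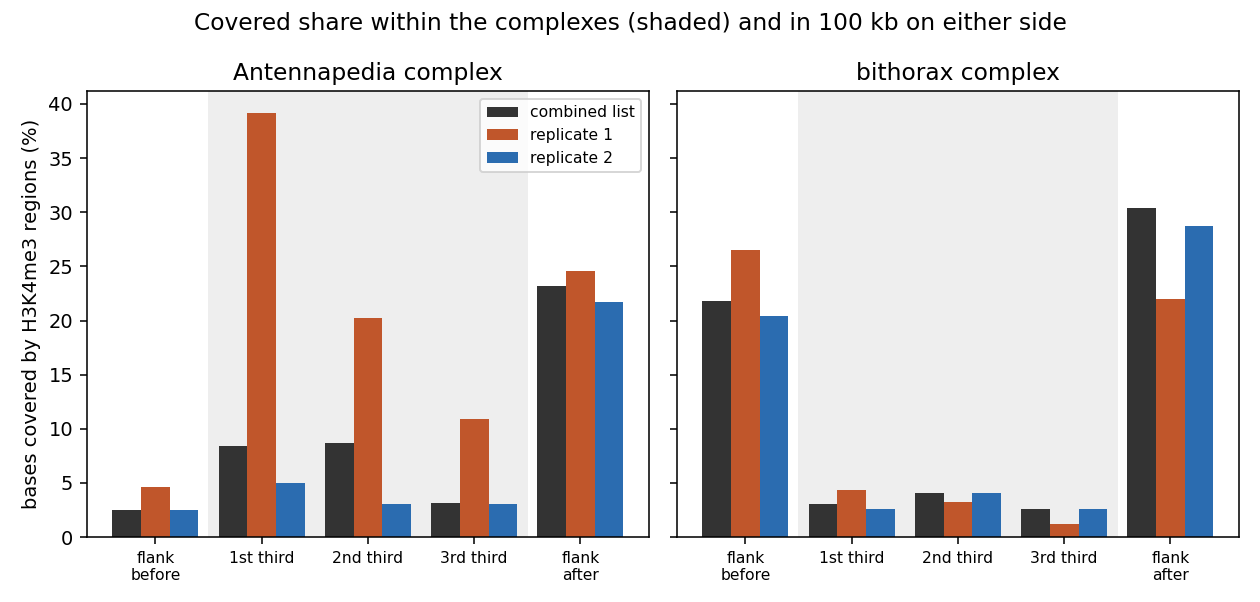
Percentage of bases covered by H3K4me3 regions (y axis) in 3 equal parts of each complex (shaded) and in the 100 kb on either side, with 1 bar per list. Coverage of the bithorax complex is 1.24% to 4.34% within and 20.4% to 30.4% in the flanks, and replicate 1 reaches 39.2% at the lab end of the Antennapedia complex.

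The positions of the windows bear on these borders. The last combined region before the bithorax window (12471177 to 12478883, score 1.85) ended 1117 bases outside it, and the next one after it (12811643 to 12814062, score 0.214) began 1643 bases outside. The first region inside began 77591 bases from the window start and the last one inside ended 49474 bases from its end. At the Antennapedia complex, the last region outside (2471674 to 2474196) scored 2.10 and the first one inside, 1714 bases from the window start, scored 2.75. At the other end, the last one inside scored 0.181, and the next one outside lay 61310 bases away with a score of 2.59.

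The 4 combined regions of the bithorax complex were of low score, and both replicates met every one by at least 1 base. The first ran from 12557591 to 12560944 (3354 bases). It scored 0.914, with 1.02 in replicate 1 and 0.858 in replicate 2. The next ran from 12653752 to 12656218 (2467 bases) and had the highest combined score of the complex, 0.990, with 0.547 in replicate 1 and 1.29 in replicate 2. The replicates therefore placed the highest score of the complex on different regions. The other two ran from 12675340 to 12677353 (2014 bases) and from 12757667 to 12760526 (2860 bases). The region starting at 12675340 had the lowest score in every list, with 0.402 combined, 0.452 in replicate 1 and 0.451 in replicate 2. The region starting at 12757667 scored 0.655 combined, 0.636 in replicate 1 and 0.938 in replicate 2. These 4 regions lay at 24.0%, 53.0%, 59.5% and 84.6% of the way through the window, which runs from the Ubx end to the Abd-B end.

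All 4 scores were below the median of the combined regions of 3R, 1.56, and none reached 1, a level reached by 62.2% of combined regions on 3R. They exceeded 20.6% to 37.5% of the combined scores of 3R. The highest combined score of the bithorax complex, 0.990, lay below the highest of each of the 82 other windows, which ranged from 2.35 to 3.64. In replicate 1 the highest score was 1.02, below all 82 windows (1.12 to 3.01), and in replicate 2 it was 1.29, also below all 82 windows (2.88 to 4.20). The highest score also depends on the number of regions, and the complex held fewer than nearly all windows. Its median score was 0.784 in the combined list, with 10 of 82 windows lower. In replicate 1 the median was 0.547, with 17 of 82 lower, and in replicate 2 it was 0.898, with 2 of 82 lower. These ranks compare scores within a list, since the scale of the score is not given.

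Long bare stretches separated the 4 regions. The stretch from 12560945 to 12653751 (92.8 kb) and the stretch from 12677354 to 12757666 (80.3 kb) held no combined region. They were the 53rd and 66th longest of the 1329 gaps of 3R, where the median gap was 6348 bases. The gap of 78.7 kb before the first region began outside the window. In replicate 1, whose list is longer, the 2 inner stretches measured 93.0 and 80.6 kb and ranked 18th and 29th of 2210 gaps on 3R. In replicate 2 they measured 92.8 and 80.4 kb and ranked 55th and 67th of 1152. So the same 2 stretches were bare in both replicates. Set against the longest bare stretch of each of the 82 other windows, the longest one here was ordinary in the combined list. There 41 of 82 windows were lower (median 93.4 kb). In replicate 2, 39 of 82 were lower (median 94.9 kb), and in replicate 1, 66 of 82 were lower (median 58.2 kb). A stretch of 51.1 kb after the last region ran to the region just outside the window. A shorter one, 19.1 kb, parted the regions at 12653752 and 12675340.

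The Antennapedia complex held 1 region of high score, at its lab end, and 8 others below the median of 3R. The region from 2481714 to 2485277 (3564 bases) scored 2.75, with 1.50 in replicate 1 and 3.27 in replicate 2, and exceeded 90.2% of the combined scores of 3R. It had the highest score of the complex in all 3 lists. As it began 1714 bases inside the window, its membership depends on where the window starts. Next came the region from 2637609 to 2642963, the widest of the combined regions here at 5355 bases. It scored 1.36, with 1.13 in replicate 1 and 1.80 in replicate 2. Its neighbour from 2634815 to 2637355 (2541 bases, score 0.421) lay in the same 8114-base region of replicate 1 but met no region of replicate 2. The region from 2502329 to 2504878 (2550 bases) scored 0.812, with 0.913 in replicate 1 and 0.685 in replicate 2.

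The remaining combined regions of the Antennapedia complex scored 0.705 or less. A pair from 2588724 to 2591237 (score 0.705) and from 2592186 to 2593336 (score 0.315) fell within 1 region of replicate 1, which scored 1.10, and neither met replicate 2. The same held for the region from 2689280 to 2691504 (score 0.514), met in replicate 1 with a score of 0.956. At the Antp end, the region from 2757183 to 2759137 (score 0.293) was present in both replicates, with 0.370 in replicate 1 and 0.357 in replicate 2. The last, from 2823754 to 2825428 (score 0.181), was found in replicate 2 alone, with a score of 0.193. Only 2 of the 9 scores reached 1, and the median was 0.514, with 4 of the 77 other windows of 3R lower.

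The longest bare stretches of the Antennapedia complex in the combined list ran from 2504879 to 2588723 (83.8 kb), from 2691505 to 2757182 (65.7 kb) and from 2759138 to 2823753 (64.6 kb). They were not bare in replicate 1. In that replicate 11 regions overlapped the stretch of 83.8 kb, covering 29.9% of it. They include those from 2502133 to 2506426 and from 2586161 to 2593348, which run in from its edges. Each of the other stretches was overlapped by 5 regions, of which that from 2688832 to 2692292 runs in from an edge. Replicate 2 had none in any of them. This differs from the bithorax complex, where no region of replicate 1 overlapped the 2 long inner stretches. There 1 region of replicate 2 overlapped each of them, by 1 base at its end. The longest stretch of the Antennapedia complex in the combined list was within the middle of the windows, with 34 of 77 lower (median 96.4 kb). The longest one in replicate 1 was 40.0 kb, with 19 of 77 lower, and in replicate 2 134.5 kb, with 60 of 77 lower.

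The observed share of combined regions met by both replicates was lower in the Antennapedia complex than in the bithorax complex, on few regions. In the Antennapedia complex 4 of 9 combined regions were met by both replicates by at least 1 base (44.4%, Wilson 95% interval 18.9% to 73.3%), against 76.5% of all combined regions on 3R. In the bithorax complex 4 of 4 were (51.0% to 100%). Of the 77 other windows of 3R, 1 had a lower share than the Antennapedia complex. With 9 and 4 regions, these intervals are wide and overlap. They cover counting error only and treat regions as independent, although these are neighbours on 1 chromosome. The combined list covers the same replicate set, so these shares are no independent support. When at least 50% of a combined region had to be covered, the share was 75% in the bithorax complex and again 44.4% in the Antennapedia complex. Replicate 1 covered 47.8% of the bithorax region starting at 12757667.

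The regions of replicate 1 in the Antennapedia complex were rarely found in replicate 2. Only 4 of 30 had a partner there (13.3%, Wilson 95% interval 5.31% to 29.7%), whereas 49.8% of replicate 1 regions did on 3R. All of the 77 other windows had a higher share, from 20.0% upward, with a median of 52.2%. In the bithorax complex 4 of 5 did (80.0%, 37.6% to 96.4%), with 77 of 82 windows lower. In the other direction, 4 of 5 regions of replicate 2 in the Antennapedia complex met replicate 1, and 4 of 4 in the bithorax complex, against 88.9% on 3R. The sequence shared by the replicates was 13.0% of all they covered together in the Antennapedia complex, where 1 of 77 windows was lower (median 44.7%). It was 62.4% in the bithorax complex, where 74 of 82 windows were lower (median 46.4%). With replicate 1 reduced to its 4959 highest scores, the length of the list of replicate 2, the share was 39.1% in the bithorax complex, with 30 of 82 windows lower (median 48.0%), and 18.7% in the Antennapedia complex, with 3 of 77 windows lower (median 46.9%).

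**Figure D4:**
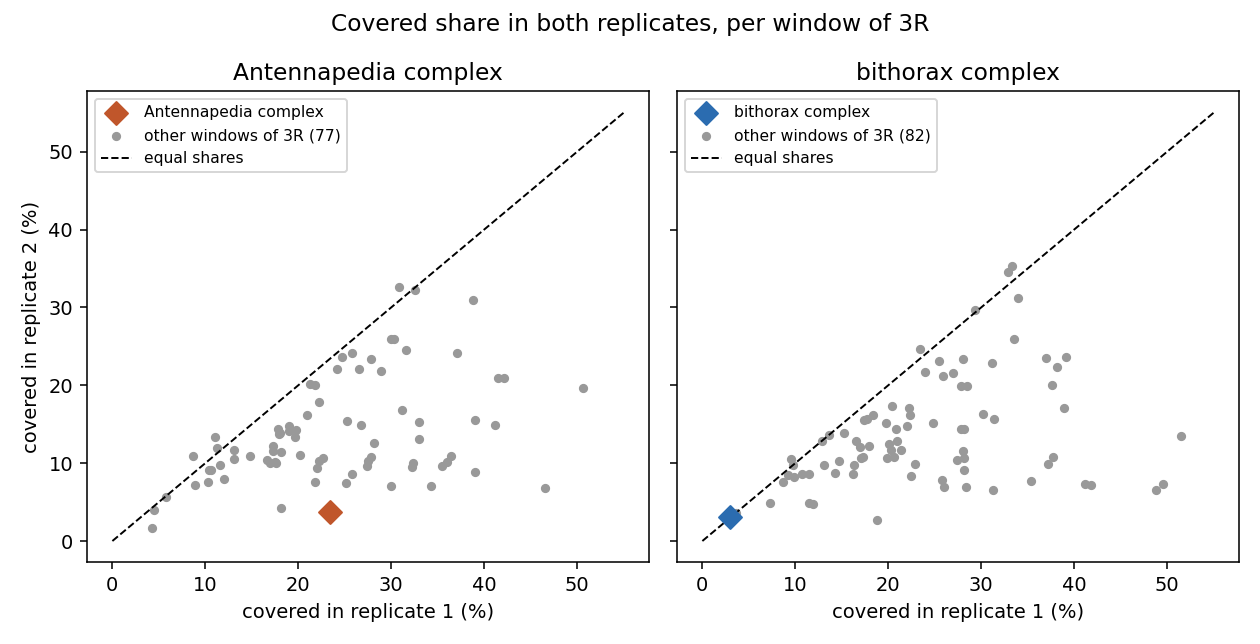
Percentage of bases covered in replicate 1 (x axis) and in replicate 2 (y axis) for each complex (diamond) and the same-sized windows of 3R (grey), with the line of equal shares. The bithorax complex lies on the line at 2.93% and 3.10%, and the Antennapedia complex lies far below it at 23.4% and 3.72%. In 15 of the 77 other windows replicate 1 exceeded replicate 2 by more.

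The 26 regions of replicate 1 in the Antennapedia complex that replicate 2 did not meet had a median score of 0.485 (range 0.198 to 1.10) and a median width of 1741 bases. The 4 that it met had a median of 1.02 (0.370 to 1.50) and 3782.5 bases. On the rest of 3R, the median score of replicate 1 was 0.532 in 1081 unmet regions and 0.939 in 1093 met ones. The unmet regions of the complex were thus of low score, as unmet regions were elsewhere on 3R, but formed 86.7% of the regions here and 49.7% there. Of the 26, 24 met no combined region either, a share close to that on the rest of 3R (977 of 1081 unmet regions). The 3 highest scores among the 26 belonged to the regions from 2586161 to 2593348 (1.10), from 2688832 to 2692292 (0.956) and from 2493439 to 2501362 (0.712, 7924 bases wide). When replicate 1 was reduced to the 4959 highest scores of its whole list, 3 of the 4 met and 6 of the 26 unmet regions stayed. The shares on the rest of 3R were similar, with 830 of 1093 met and 275 of 1081 unmet regions kept.

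Beside these 26, 2 regions of the replicates lacked a partner in the other one. The region of replicate 1 from 12504808 to 12506210 in the bithorax complex scored 0.458 and met no region of replicate 2 or of the combined list. The region of replicate 2 from 2823784 to 2825445 in the Antennapedia complex scored 0.193 and met no region of replicate 1.

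At the 8 positions shared by the replicates, the median difference in score was smaller than on the rest of 3R. The difference, replicate 1 minus replicate 2, was -1.77, 0.23, -0.66 and 0.01 at the 4 matched pairs of the Antennapedia complex, in order of position. It was 0.16, -0.74, 0.00148 and -0.30 at the 4 pairs of the bithorax complex. Its median was -0.32 in the Antennapedia complex and -0.15 in the bithorax complex, against -1.41 over 1010 matched pairs on the rest of 3R. Replicate 1 had the lower score in 2 of 4 pairs in each complex and in 90.7% of pairs on the rest of 3R. Each list had its own Input sample as background, and the scores of the replicates may be on unlike scales, so these differences are values side by side and show no change in level. The members' scores in replicate 2 are also low: its median over matched pairs was 1.24 in the Antennapedia complex and 0.898 in the bithorax complex, against 2.50 on the rest of 3R. Whether the smaller difference goes with the lower score was not tested.

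**Figure D5:**
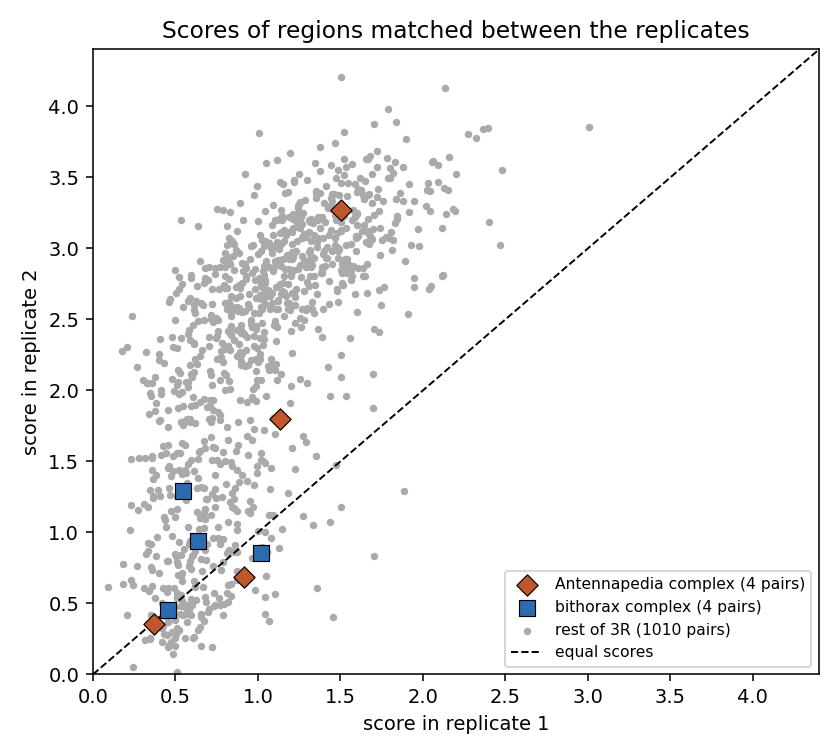
Scores in replicate 1 (x axis) and replicate 2 (y axis) of regions matched between the replicates, for the Antennapedia complex (diamonds), the bithorax complex (squares) and the rest of 3R (grey), with the line of equal scores. Of the 8 pairs in the complexes 4 lie on or just below the line, whereas 90.7% of the pairs on the rest of 3R lie above it.

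The borders of the shared regions differed by 21 to 4561 bases. In the bithorax complex the starts of replicates 1 and 2 differed by 175 to 554 bases and the ends by 40 to 1275 bases. The end at about the border of the first bithorax region was at 12560888 in replicate 1 and 12560928 in replicate 2, 40 bases apart. The region near 12757667 was 1368 bases wide in replicate 1 and 2893 bases wide in replicate 2, which set its end apart by 1275 bases. In the Antennapedia complex the starts differed most, by 4561 bases, at the pair ending near 2642963, which was 8114 bases wide in replicate 1 and 3597 bases wide in replicate 2. Its ends were 44 bases apart. The median overlap of a pair, as a share of the bases spanned by both of its regions, was 71.5% in the Antennapedia complex, 75.0% in the bithorax complex and 84.7% on the rest of 3R.

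Regions of the complexes were narrower, at the median, than those on the rest of 3R in each list. Combined regions had a median width of 2514 bases in the Antennapedia complex and 2663.5 bases in the bithorax complex, against 2807 bases on the rest of 3R. A width of at least 5 kb was reached by 1 of 9 combined regions in the Antennapedia complex and by 0 of 4 in the bithorax complex, against 12.6% on the rest of 3R. In replicate 1 such widths were no rarer in the Antennapedia complex, with 4 of 30 regions (13.3%) against 10.6% on the rest of 3R. The bithorax complex had 0 of 5 there. In replicate 2 neither complex had a region of this width, against 12.5% on the rest of 3R. In replicate 1 the median width was 1842 bases in the Antennapedia complex and 1491 bases in the bithorax complex, against 2339.5 bases on the rest of 3R. In replicate 2 the medians were 2255, 2688 and 2934.5 bases in the same order. Against the other windows, the median of the bithorax complex was below all 82 in replicate 1, with 31 of 82 lower in the combined list and 20 of 82 lower in replicate 2. For the Antennapedia complex 2 of 77 windows were lower in replicate 1, 16 in the combined list and 1 in replicate 2. The widest region of the bithorax complex in any list, 3373 bases in replicate 1, was narrower than the widest region in 80 of the 82 other windows.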

How the data were processed

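Enriched regions were called by the authors separately for each H3K4me3 ChIP replicate and for the replicate set, on FlyBase release 5 per the file headers. Per the labels, the Input numbered 2 was the background of replicate 1 and the Input numbered 1 that of replicate 2. Bowtie 0.12.7 is named in the submitters' processing notes. The sources used here name neither the caller and its thresholds nor the way in which the replicates were joined. The deposited score per region is on a scale that the authors' files do not state, and read depth is unknown, so no value could be weighted by it.

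Regions that overlapped a window by at least 1 base were counted, and coverage was clipped to the window. Windows of the same size were laid end to end over 3R from its first base. Shares of regions carry 95% Wilson intervals. Matched pairs are regions that were each other's greatest overlap. With 1 group of 2 lists no test between conditions was possible, and none was made. The regions named were all combined regions of each complex, the 3 longest bare stretches, and the 3 highest scores of each replicate without a partner. The members and lists were chosen with earlier results of these data known. The functions were tested on simulated regions. Matplotlib 3.10.9, SciPy 1.17.1, pandas 2.3.3 and NumPy 2.4.6 were used under Python 3.11.15.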

Additional observations from a re-analysis of the deposited data

How the results depend on the processing

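Alternatives to the 16 results gave 75 values, of which 46 stayed within the limit set for them and 29 did not. The limit was the spread between replicates, the counting interval or, for counts, a fixed factor. A further 3 gave no value because no combined region of the bithorax complex scored at least 1. The limit is wider where the replicates differ more, so these counts do not measure how stable a result is. A covered share of 3.72% in place of 6.72% stayed within it in the Antennapedia complex (SD 14.0). In the bithorax complex 3.10% in place of 3.24% did not (SD 0.116). With the list of replicate 1, the Antennapedia complex held 30 regions, covered 23.4%, had a median width of 1842 bases and exceeded 50.6% of the other windows of 3R in coverage. With that of replicate 2 it held 5 regions with a median score of 0.685. For the bithorax complex, replicate 1 gave a covered share of 2.93% and a median width of 1491 bases, and replicate 2 gave 3.10%, with 1.22% of windows lower. The bithorax complex was also above 1.22% of windows with scores of at least 0.5 and with windows shifted by 0.5 of their length. In 2692 overlapping windows started every 10 kb, an alternative chosen after seeing the data, 0.557% were covered less than the bithorax complex, and in 2686 such windows 6.78% were covered less than the Antennapedia complex. Keeping scores of at least 0.5 left 5 regions with a median score of 0.812 in the Antennapedia complex and 2.63% covered in the bithorax complex. At a score of at least 1 the Antennapedia complex kept 2 regions (median score 2.05, median width 4459.5 bases, 100% met by both replicates, 36.0% of covered bases shared). The bithorax complex then had 0 regions, 0% covered, 0% shared and a mean over replicates of 0.890%. For shared bases and for the mean, the same cut-off was applied to both replicates. On the rest of 3R it kept 23.4% of replicate 1 regions and 77.1% of replicate 2 regions, so its strictness differed between them. Widening by 50 kb on each side gave the bithorax complex 16 regions and 10.5% covered, since regions outside its borders entered. With replicate 1 reduced to the length of replicate 2, shared bases were 18.7% in the Antennapedia complex and 39.1% in the bithorax complex, whose mean coverage became 2.27%. Leaving out 1 replicate gave 3.72% to 23.4% mean coverage in the Antennapedia complex and 2.93% to 3.10% in the bithorax complex. With 2 replicates such a change is always smaller than their SD, so these values had to stay within the limit. No paired analysis was possible because Input samples have no lists, so that no result comes from a test between groups. The main limits are the unknown depth, the unknown score scale, the 2 replicates and the small number of regions.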

Other observations

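In the combined list, few other windows of 3R were covered as little as the homeotic complexes. Replicate 1 did not show this for the Antennapedia complex, where 39 of 77 windows were covered less. Among the windows of the size of the Antennapedia complex, 4 were covered less by combined regions than its 6.72%. They ran from 23800069 to 24150069 (3 regions, 2.31%), from 3150010 to 3500010 (6 regions, 4.01%), from 1750006 to 2100006 (9 regions, 6.14%) and from 12950038 to 13300038 (9 regions, 6.36%). Replicate 1 covered 4.21%, 4.47%, 18.1% and 5.78% of these, in the same order, and replicate 2 covered 1.63%, 3.98%, 4.24% and 5.60%. The window from position 1750006 had 25 regions in replicate 1 and 6 in replicate 2 (30 and 5 in the Antennapedia complex), and the other 3 had 7 and 2, 8 and 6, and 10 and 7 regions. With windows of the size of the bithorax complex started every 10 kb, the lowest coverage was 1.72%, from 23820001 to 24150001, with 2 combined regions. No gene was assigned to these stretches.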
